A study of Mus musculus with 3 samples.

Results

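The solute carriers are the genes whose symbol has the form Slc, a family number, a letter and a member number. Of 9678 genes with a named probe, 161 met this rule, against 382 such symbols in the RefSeq annotation of the mouse. Each gene is given by its probe with the highest mean. The members were grouped by the substrate of their family into amino acid (24 genes), sugar and monocarboxylate (17), metal (19), nucleoside and nucleotide sugar (21), mitochondrial carrier (31), inorganic ion and pH (16), and vitamin, lipid, organic ion and other (29) classes. A further 4 symbols fit the rule but name proteins called after a carrier, and these are described apart. RNA came from 3 biological replicates of the mouse embryonic stem (ES) cell line OS25, all in 1 group labelled undifferentiated ES cells. They grew in serum with leukaemia inhibitory factor and hygromycin, and each replicate was measured on 1 Illumina BeadArray. The study was titled for acetylation of a lysine of histone H4. With no second group, the design allows a description of which carriers were above background, at what level, and how far the replicates differed, and no test between conditions.

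Solute carriers are membrane proteins that move small molecules down their gradients or against them by coupling to sodium, protons, chloride or a counter-substrate. Those of the plasma membrane bring in glucose, amino acids, metals and vitamins. Most SLC25 carriers work across the inner mitochondrial membrane, and the SLC35 family loads nucleotide sugars into the Golgi and endoplasmic reticulum for glycosylation. ES cells divide fast and draw on glucose and amino acids for growth, and the supply of substrates for glycosylation, folate metabolism and heme passes through these proteins.

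Levels are normalised log2 intensities (neqc: background-corrected, quantile-normalised and with an offset of 16), with mean ± SD over n = 3 arrays. A probe counted as detected on an array where its detection p, which sets it against the negative control beads, was under 0.01. The median unprocessed intensity lay between 74.9 and 80.7 on the 3 arrays, and between 14515 and 15865 of 45281 probes were above background. Gene names were available only for probes of the authors' processed table, which holds 17754 probes, so shares detected refer to those probes and not to all on the array. Of 12 ES cell markers, 4 had a named probe and 1, Klf4, was detected on all 3 arrays, while Zfp42 and Fbxo15 were above background on replicate 1 alone, Tfcp2l1 on no array, and Pou5f1, Nanog, Sox2 and Esrrb had no named probe. Of 12 fibroblast markers, 9 had a named probe and 7 were detected on all 3 arrays. Of all 9678 named genes, 82.1% were detected on all 3 arrays, so such detection alone does not mark a cell type. The summed linear level of the named fibroblast markers was 15643, 11767 and 9979 on replicates 1, 2 and 3, and that of the named ES cell markers 212, 351 and 317. These sums cover 9 and 4 different probes and include the offset and probes at background. The 2 sums were therefore not set against each other. Single genes weighed heavily in both. On replicates 1, 2 and 3, Dcn was at 12.28, 6.77 and 5.42 (the last not above background). Klf4 was at 6.48, 8.08 and 7.86, whereas Zfp42, Tfcp2l1 and Fbxo15 were each highest on replicate 1. The changes of the sums over replicates therefore do not describe the lists as a whole. The 4 ES cell markers with a named probe did not, as a set, bear out the labelled cell type, although the best-known ones could not be checked. The samples are named below by replicate number. Replicate 1 stood apart: across 7950 genes detected on all arrays, Pearson's correlation was 0.944 and 0.946 with replicates 2 and 3, and 0.991 between those 2.

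On the 3 arrays, 120 of the 161 solute carrier genes (74.5%, 95% Clopper-Pearson interval 67.1 to 81.1%) were detected on all 3 arrays, beside 82.1% of all 9678 named genes. Another 11 were detected on 2 arrays (6.83%, against 5.37% of all named genes), 17 on 1 array (10.6%, against 8.73%) and 13 on none (8.07%, against 3.75%). Some arrays but not all therefore detected 28 carriers (17.4%, against 14.1% of all named genes). The interval given above treats the genes as independent draws and does not measure the spread between replicates. Replicate 1 had 141 of the carriers above background (87.6%, beside 92.2% of all named genes), replicate 2 had 134 (83.2%, beside 88.4%) and replicate 3 had 124 (77%, beside 85.3%). On each array the carriers’ share lay below that of all named genes, a difference that was not tested. Detection was most frequent in the nucleoside and nucleotide sugar class (19 of 21), the metal class (17 of 19) and the mitochondrial carriers (26 of 31). It was least frequent in the sugar and monocarboxylate class (9 of 17) and the amino acid class (14 of 24). Between these lay the inorganic ion and pH class (11 of 16) and the vitamin, lipid, organic ion and other class (20 of 29). The order of the classes is a description of these arrays, and the differences between classes were not tested. Of 72 well-known carriers listed by class, 45 had a named probe and 38 of those were detected on all 3 arrays. The other 27, among them the amino acid carrier genes Slc3a2 and Slc7a5 and the lactate carrier gene Slc16a1, had no named probe and are not analysed here.

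**Figure D1:**
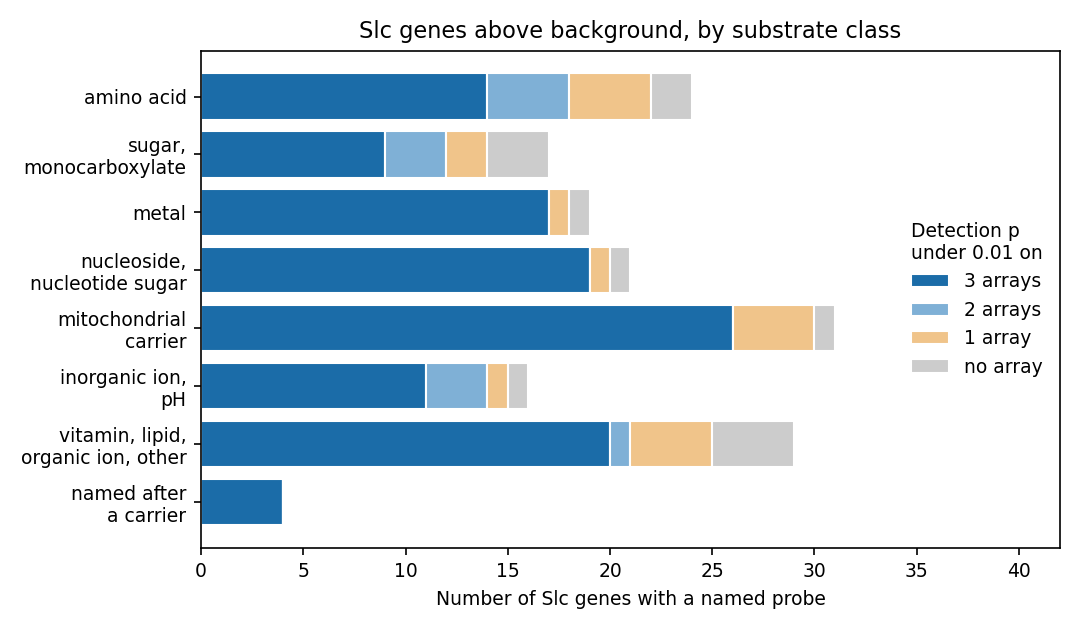
Number of solute carrier genes with a named probe in each substrate class (horizontal axis), split by the number of arrays on which the gene's probe had a detection p under 0.01. The bars for metal, nucleoside and mitochondrial carriers are mostly dark (17 of 19, 19 of 21 and 26 of 31 detected on all arrays), whereas 9 of 17 sugar and 14 of 24 amino acid carriers were detected on all 3.

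Among the 120 detected carriers, 14 (11.7%) spanned over 2-fold between arrays, beside 10.1% of all detected genes, so the share lay near that of genes in general. A range over 4-fold was found for 2 carriers (1.67%, beside 1.58% of all detected genes). Replicate 1 was the outlying array in all 14, the one farthest from the middle of the 3 values, beside 93.3% of all genes spanning over 2-fold. It was the highest array in 6 (beside 44.5% of those genes) and the lowest in 8 (beside 55.2%). Over all 120 detected carriers it was the outlying array in 92 (76.7%, beside 63.7% of all detected genes). Replicates 1 and 2 were over 2-fold apart for 11 carriers (9.17%, beside 7.79%) and replicates 1 and 3 for 14 (11.7%, beside 8.25%). None of the 120 differed by over 2-fold between replicates 2 and 3 (0.453% of all detected genes did), and without replicate 1 none of 123 detected carriers spanned over 2-fold. The widest ranges in each direction belonged to Slc1a3, which encodes the glutamate transporter GLAST of astrocytes, and Slc19a2, which encodes the thiamine transporter THTR1. On replicates 1, 2 and 3 Slc1a3 was at 8.95, 6.30 and 6.75, a range of 2.65 log2 units. Slc19a2 was at 8.11, 10.28 and 9.65, a range of 2.18. The first was thus high on replicate 1 alone, and the second low on replicate 1 alone. In mouse cells Slc19a2 is known as a direct target of p53. Cdkn1a, another p53 target that is no carrier and was chosen with its values known, was at 8.06, 11.95 and 11.15. The part of p53 in these values was not tested.

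Their upstream sequences are shown beside that of Slc2a1, the gene of the main glucose transporter of dividing cells, whose level differed little between arrays. Each runs over the 250 bases before the RefSeq start site (GRCm38.p6), 5′ to 3′ on the gene's strand. Capitals mark matches to 4 short motifs on either strand. The GC box was searched as GGGCGG and is bound by Sp factors. The CCAAT box was searched by the letters of its name. The TATA box, which places the start of transcription, was searched as TATAAA. The core of the cAMP response element, bound by CREB and ATF factors, was searched as TGACGT. None of these motifs contains another, and all were searched on both strands.
Slc1a3, chr15:8710808-8711057, minus strand: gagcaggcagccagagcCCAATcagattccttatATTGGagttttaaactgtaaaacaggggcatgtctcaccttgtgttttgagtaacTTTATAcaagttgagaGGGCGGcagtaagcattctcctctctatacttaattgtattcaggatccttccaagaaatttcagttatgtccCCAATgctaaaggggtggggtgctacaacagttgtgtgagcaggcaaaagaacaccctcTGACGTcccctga
Slc19a2, chr1:164248796-164249045, plus strand: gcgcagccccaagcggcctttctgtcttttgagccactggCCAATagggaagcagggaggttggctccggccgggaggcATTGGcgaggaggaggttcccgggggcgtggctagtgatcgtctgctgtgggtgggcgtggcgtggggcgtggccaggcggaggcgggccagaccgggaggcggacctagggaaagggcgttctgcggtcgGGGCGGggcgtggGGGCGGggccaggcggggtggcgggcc
Slc2a1, chr4:119108495-119108744, plus strand: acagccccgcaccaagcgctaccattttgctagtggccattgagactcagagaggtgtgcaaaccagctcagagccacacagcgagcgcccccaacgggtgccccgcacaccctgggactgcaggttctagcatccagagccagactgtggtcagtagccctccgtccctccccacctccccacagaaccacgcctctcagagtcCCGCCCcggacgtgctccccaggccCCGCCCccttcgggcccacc

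The window of Slc1a3 was 44.8% G and C and held 1 GC box, 3 CCAAT boxes, 1 TATA box and 1 cAMP response element core. That of Slc19a2 was 73.2% G and C, with 2 GC boxes and 2 CCAAT boxes, and that of Slc2a1 66.4%, with 2 GC boxes and no match to the other motifs. Over the same 250 bases before the start in all 32851 RefSeq promoter entries, 32.7% held a GC box, 33.8% a CCAAT box, 12.4% a TATA box and 6.47% the cAMP response element core. Of 173 windows belonging to 127 of the carriers, 60.1%, 33.5%, 5.78% and 8.09% held these motifs in the same order. The median G and C content was 60.4% in the carriers' windows and 52.4% in all windows. The 2 sets are unlike, since the carriers' windows belong only to genes with a named probe and the full set was not so limited. Shares for other genes with a named probe were not computed, so the differences cannot be assigned to carriers. A match is a run of letters and shows no binding.

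**Figure D2:**
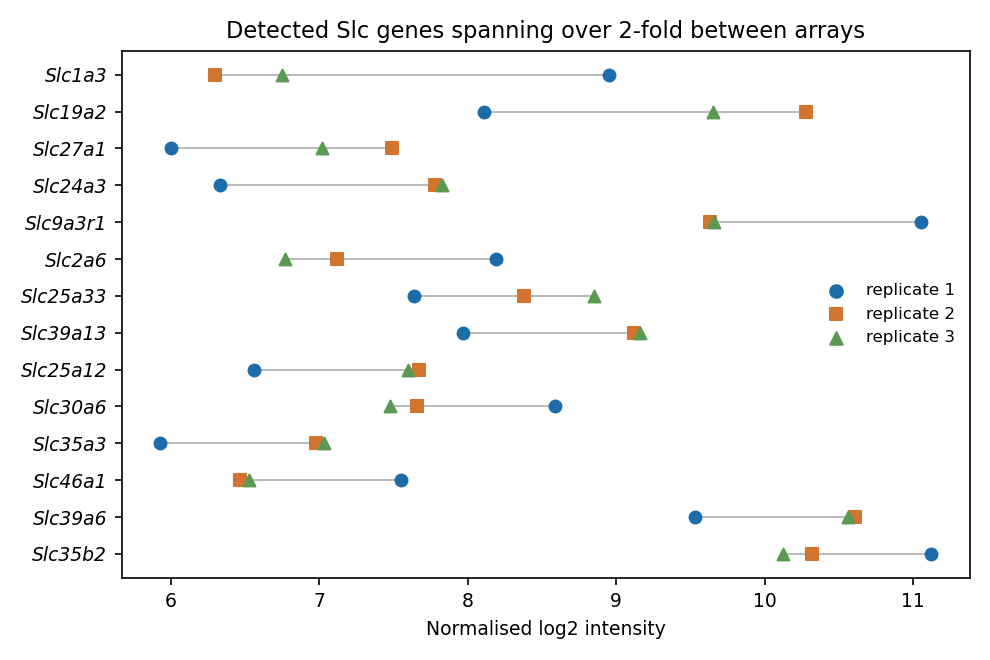
Normalised log2 intensity (horizontal axis) of the 14 solute carrier genes detected on all 3 arrays that spanned over 2-fold, ordered by range; each symbol is 1 array. In every row replicate 1 is the outlying array, above them in 6 genes (Slc1a3 the widest, range 2.65) and below them in 8 (Slc19a2 the widest, range 2.18).

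Amino acid carriers were represented at the plasma membrane by the sodium-coupled neutral carriers and at the lysosome by carriers that export amino acids. All 6 named members of the SLC38 family were detected. Slc38a2, which encodes the starvation-inducible neutral carrier SNAT2, was at 11.20, 10.64 and 10.70 (10.85 ± 0.30, n = 3), highest on replicate 1. Slc38a1, a glutamine carrier gene, was at 7.10, 6.35 and 6.52, again highest on replicate 1. The imprinted gene Slc38a4 was at 6.01, 5.81 and 5.64, and Slc38a10 at 7.07, 6.98 and 7.04, a range of 0.09, though its other detected probe had a range of 0.44. Slc38a9, whose protein senses arginine at the lysosome, averaged 6.96 ± 0.19 (n = 3), and Slc38a7, a lysosomal glutamine exporter gene, 7.54 ± 0.14 (n = 3). Those lysosomal genes spanned 1.30-fold and 1.21-fold between arrays.

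Slc1a4, the gene of the neutral amino acid exchanger ASCT1, was at 9.04, 8.66 and 8.44. In family 6 the taurine carrier gene Slc6a6 was at 12.06, 12.10 and 12.26, within 0.20 log2 units. Its other probe was detected too, but at far lower levels (5.68, 5.68 and 5.63). The glycine carrier gene Slc6a9 was at 9.94, 9.27 and 9.25, highest on replicate 1. The creatine carrier gene Slc6a8 went the other way, at 8.84, 9.45 and 9.57, lowest on replicate 1. Slc6a15, a neutral amino acid carrier gene of neurons, was just above background on each array (detection p of 0.00214, 0.00748 and 0.00641). Among family 7, only Slc7a6, which encodes the light chain y+LAT2 for cationic and neutral amino acids, was detected on all 3 arrays (6.96, 6.84 and 6.62). Slc7a11, the gene of the cystine and glutamate exchanger xCT that supplies cysteine for glutathione, was above background on replicate 2 alone (detection p of 0.134, 0.00855 and 0.0374). Slc7a3, a cationic amino acid carrier gene, was likewise above background on replicate 2 alone. Slc7a4, Slc7a7 and Slc7a13 were detected on replicates 1 and 2 and not on replicate 3. The gut and kidney carrier gene Slc6a19 and the betaine carrier gene Slc6a12 were at background on every array.

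Expression of genes that respond to amino acid shortage is given for context from a list of 35 genes that work with carriers. All 27 with a named probe were detected on all 3 arrays, beside 82.1% of all named genes. Of the 27, 2 (Txnip and Sesn2) spanned over 2-fold, beside 10.1% of all detected genes. The transcription factor gene Atf4 was at 11.73, 11.40 and 11.26, and its target Asns, which makes asparagine, at 12.24, 11.75 and 11.61. Sesn2, which encodes a leucine sensor and is also a p53 target, was at 5.37, 6.53 and 6.18, lowest on replicate 1.

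Glucose entry was represented by Slc2a1 on every array and by Slc2a3 on 1. Slc2a1, which encodes GLUT1, was at 10.48, 10.76 and 10.71 (10.65 ± 0.15, n = 3). The 3 arrays lay within 0.28 log2 units. Slc2a3 encodes GLUT3, the high-affinity glucose transporter of neurons and of the early embryo. It was at 9.19 on replicate 1 and at 5.08 and 5.18 on replicates 2 and 3, where it was not above background (detection p of 0.0427 and 0.0353). The level on replicate 1 was at least 14.3-fold higher than on replicate 2 and at least 13-fold higher than on replicate 3, taking for the dim array the lowest level of any probe above background there. Slc2a6, the gene of the lysosomal transporter GLUT6, was at 8.19, 7.12 and 6.77, highest on replicate 1. The intracellular transporter genes Slc2a8 (7.31, 6.86 and 6.82) and Slc2a10 (5.69, 5.58 and 5.58) spanned 1.40-fold and 1.08-fold. The other detected probe of Slc2a10 was lowest on replicate 1 (5.33, 5.53 and 5.79), with a range of 0.47 log2 units. The insulin-responsive GLUT4 gene Slc2a4 was above background on replicate 1 alone, at 5.38, close to the background limit. The proton-coupled myo-inositol carrier gene Slc2a13 was above background on replicates 2 and 3 (6.10 and 5.73) and not on replicate 1 (4.94).

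Other members of the sugar and monocarboxylate class by family carry different substrates. Slc5a6, the carrier gene for biotin and pantothenate, was at 8.86, 8.29 and 8.31. Slc5a7, which encodes the choline carrier of cholinergic neurons, was at 4.58 on replicate 1, not above background, and at 6.41 and 6.15 on replicates 2 and 3. Both Slc5a6 and Slc37a3, a sugar phosphate carrier homologue (7.11, 6.37 and 6.42), were highest on replicate 1. So was Slc50a1, the mouse gene of the SWEET sugar transporter family, at 9.02, 8.62 and 8.26. Txnip, which lowers glucose uptake by acting on GLUT1, was at 10.93, 10.48 and 9.40, and Hk1, a hexokinase gene, at 5.84, 6.35 and 6.41.

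Zinc carriers made up much of the metal class, and those that fill or empty the secretory pathway were detected throughout. Slc30a5 and Slc30a7, whose proteins load zinc into the early secretory pathway, were at 9.67, 9.60 and 9.62, and at 8.13, 8.34 and 8.47. Slc30a6, whose protein pairs with that of Slc30a5, was at 8.59, 7.66 and 7.48, a range of 1.11 log2 units, against 0.07 for Slc30a5. Both partners were highest on replicate 1 with these probes, but the other probe of Slc30a5 was lowest there (9.48, 9.65 and 9.64). The zinc exporter gene of the plasma membrane, Slc30a1, was at 6.0, 5.89 and 5.94. Zinc importer genes of the SLC39 family were detected in 6 of 6 named cases. Slc39a1 was at 6.35, 6.40 and 6.35, within 0.05 log2 units. Slc39a6 was at 9.53, 10.61 and 10.56, and Slc39a13, whose loss causes a connective tissue disorder in humans and mice, at 7.97, 9.12 and 9.16. Both were lowest on replicate 1. The second probe of Slc39a13 gave 6.02, 7.52 and 7.61, with the same array apart. Slc39a7, which releases zinc from the endoplasmic reticulum, was at 10.79, 11.05 and 11.12. Of the metallothionein genes, whose proteins bind zinc, Mt1 was at 13.14, 13.35 and 12.99, and Mt2 at 6.15, 5.98 and 6.45.

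Iron and copper carriers were detected with one marked exception. Slc40a1 encodes ferroportin, the only known cellular iron exporter of mammals. It was at 9.51 on replicate 1 and at 5.19 and 5.35 on replicates 2 and 3, where its detection p was 0.0224 and 0.015. That is at least 17.9-fold and at least 16.2-fold higher on replicate 1, which were the largest such bounds of the 28 carriers detected on some arrays only. The iron importer gene Slc11a2 (DMT1) was at 8.54, 8.34 and 8.54, without such a difference. Slc11a1, known as a metal carrier of macrophage phagosomes, was at 6.39, 7.03 and 6.84. The transferrin receptor gene Tfrc was at 9.75, 10.46 and 10.64, lowest on replicate 1, and the ferritin gene Fth1 at 13.89, 13.93 and 13.85. Slc31a1, the copper importer gene, was at 9.89, 9.60 and 9.70. Slc48a1, a carrier gene for heme from lysosomes, averaged 10.11 ± 0.16 (n = 3). The magnesium carrier gene Slc41a2 was at 6.12, 7.04 and 6.88.

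**Figure D3:**
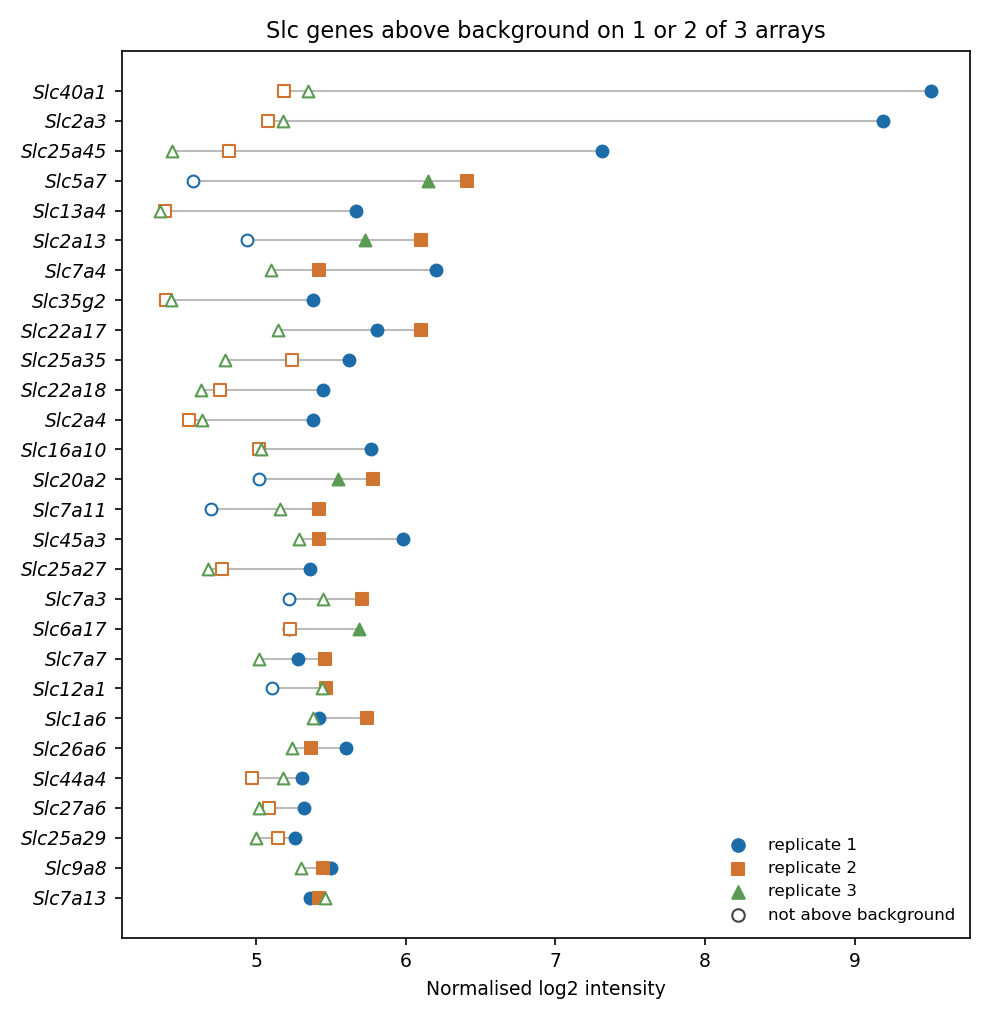
Normalised log2 intensity (horizontal axis) of the 28 solute carrier genes above background on 1 or 2 of the 3 arrays, ordered by range; filled symbols are above background and open ones are not. Slc40a1 (9.51) and Slc2a3 (9.19) stand far to the right on replicate 1 alone, while most other rows lie close to the background limit.

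Of the 41 carriers not detected on all arrays, 13 were above background on replicate 1 alone (31.7%, beside 35.3% of all 1728 such genes) and 8 on replicates 1 and 2 alone (19.5%, beside 16%). Another 3 were so on replicate 2 alone (beside 9.95% of all such genes), 1 on replicate 3 alone (beside 3.65%), 3 on replicates 2 and 3 alone (beside 9.32%) and 0 on replicates 1 and 3 alone (beside 4.75%). Besides Slc40a1 and Slc2a3, a bound over 2-fold was reached by Slc25a45 and Slc5a7 (at least 2.26-fold lower on replicate 1 than on replicate 2). Slc25a45, a mitochondrial carrier gene, was at 7.31, 4.82 and 4.44, at least 3.89-fold and 3.53-fold higher than on replicates 2 and 3. The remaining genes above background on some arrays were Slc13a4, Slc16a10, Slc27a6 and Slc44a4 on replicate 1 alone, Slc6a17 on replicate 3 alone, and Slc1a6, Slc22a17, Slc26a6, Slc45a3 and Slc9a8 on replicates 1 and 2. The genes above background on no array were Slc15a1, Slc17a6, Slc20a1, Slc22a19, Slc23a4, Slc25a43, Slc29a4, Slc2a9, Slc30a3, Slc37a2, Slc5a12, Slc6a12 and Slc6a19. Some of the 9 named fibroblast markers also set replicate 1 apart, in both directions. Dcn was at 12.28, 6.77 and 5.42 (the last not above background) and Pdgfra at 9.59, 6.07 and 5.84. Thy1 was at 6.81, 9.85 and 9.49 and S100a4 at 6.81, 8.34 and 8.24, while Col1a1 (11.95, 11.99 and 11.76) varied little. The part in the carriers' values of what these markers mark was not tested.

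Nucleoside carriers and the nucleotide sugar carriers of the SLC35 family were nearly all detected. The equilibrative nucleoside carrier gene Slc29a1 (ENT1) was at 9.20, 9.38 and 9.52, and its lysosomal relative Slc29a3 (ENT3) at 8.26, 8.45 and 8.44. Slc29a4, a monoamine carrier gene of that family, was at background on every array. Of the SLC35 family, 17 of 18 were detected, and Slc35g2 was above background on replicate 1 alone. Slc35b4 was at 9.55, 9.53 and 9.53, the narrowest range of all 120 detected carriers (0.02), and Slc35e1 at 9.54, 9.49 and 9.58. Slc35a1, which supplies CMP-sialic acid to the Golgi, was at 6.58, 6.54 and 6.79, and Slc35c1, the GDP-fucose carrier gene, at 10.54, 10.13 and 10.18. Slc35b1, which exchanges ATP and ADP across the endoplasmic reticulum membrane, was at 11.06, 10.88 and 10.80. The widest of these 5 was Slc35c1, at 1.33-fold. Slc35a3, a carrier gene for UDP-N-acetylglucosamine, was at 5.93, 6.98 and 7.03, lowest on replicate 1, as it was with each of its other 2 probes. Slc35d2 (5.92, 6.75 and 6.57) and Slc35e3 (8.97, 9.68 and 9.77) were lowest there too. Slc35b2, which brings the sulphate donor PAPS into the Golgi, was the opposite, at 11.12, 10.32 and 10.12.

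Mitochondrial carriers, taken as the whole SLC25 family, formed the largest class, with 26 of 31 detected. The phosphate carrier gene Slc25a3 was at 11.14, 10.90 and 10.68 with the probe used and at 9.08, 9.56 and 9.46 with its other probe, so its probes put replicate 1 on opposite sides. The citrate carrier gene Slc25a1 was at 9.02, 8.64 and 8.66, and the carnitine-acylcarnitine carrier gene Slc25a20 at 10.03, 9.61 and 9.60. The ADP/ATP carrier gene Slc25a5 was at 12.11, 12.82 and 12.85, lowest on replicate 1. The oxoglutarate carrier gene Slc25a11 (9.91, 9.49 and 9.29) and the dicarboxylate carrier gene Slc25a10 (8.94, 8.27 and 8.39) were highest there. Slc25a12, which encodes the aspartate-glutamate carrier AGC1 of the malate-aspartate shuttle, was at 6.56, 7.67 and 7.60, and the pyrimidine nucleotide carrier gene Slc25a33 at 7.64, 8.38 and 8.85. Both were lowest on replicate 1 and spanned over 2-fold. The iron importers of mitochondria differed from each other: mitoferrin-1 (Slc25a37) was at 7.04, 7.88 and 8.03, just short of 2-fold, and mitoferrin-2 (Slc25a28) at 10.44, 9.92 and 10.09. Slc25a24, a carrier gene for ATP-Mg and phosphate, was at 7.35, 8.30 and 8.22 with the probe used and at 6.74, 8.17 and 8.08 with its other probe, which passed 2-fold. Slc25a38, which brings in glycine for heme synthesis, and Slc25a39, which brings in glutathione, averaged 9.67 ± 0.08 and 9.29 ± 0.10 (SD, n = 3 each). Slc25a47, best known from liver, was at 6.83, 6.59 and 6.85. Slc25a27, Slc25a29, Slc25a35 and Slc25a45 were above background on replicate 1 alone, and Slc25a43 on no array.

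Ion carriers that set cell volume and pH included genes with little spread. The sodium, potassium and chloride cotransporter gene Slc12a2 (NKCC1) was at 9.63, 9.69 and 9.76, and the anion exchanger gene Slc4a2 (AE2) at 10.55, 10.48 and 10.41. The potassium and chloride cotransporter genes Slc12a4 (6.07, 6.86 and 6.50) and Slc12a7 (8.45, 7.49 and 7.72) moved in opposite directions on replicate 1. Slc4a3, another anion exchanger gene, was at 7.61, 7.24 and 7.04. Slc24a3, a potassium-dependent sodium and calcium exchanger gene, was at 6.33, 7.78 and 7.83, the widest range of the class. Slc12a3, best known as the thiazide-sensitive cotransporter gene of the kidney, was detected at 9.55, 9.47 and 9.81, whereas its kidney relative Slc12a1 was above background on replicate 2 alone. Of the sodium-phosphate carriers, Slc20a2 was above background on replicates 2 and 3 (5.78 and 5.55) and Slc20a1 on none. The phosphate exporter gene Xpr1 was at 8.54, 9.44 and 9.35.

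Vitamin, choline and lipid carriers included both steady and variable genes. Folate entry had Slc19a1, the reduced folate carrier gene, at 8.92, 8.80 and 9.08, and Slc46a1, the proton-coupled folate carrier gene, at 7.55, 6.47 and 6.53. The first was steady and the second highest on replicate 1, as was Slc46a3 of the same family (8.19, 7.46 and 7.35). Fatty acid transport protein genes were mixed: Slc27a1 was at 6.0, 7.49 and 7.02, lowest on replicate 1, while Slc27a4 was at 6.34, 5.97 and 6.11. The choline carrier gene Slc44a1 was at 9.90, 9.54 and 9.46 with its brightest probe, and its other 3 probes were not detected on all arrays. Slc44a2 averaged 10.58 ± 0.11 (n = 3), and the carnitine carrier gene Slc22a5 was at 8.63, 8.04 and 8.02. Riboflavin carrier gene Slc52a3 averaged 6.77 ± 0.18 (n = 3). Slc22a7 (5.83, 6.25 and 6.27), an organic anion carrier gene of liver and kidney, was detected on all 3 arrays. The imprinted gene Slc22a18 was above background on replicate 1 alone, at 5.45. Slc15a1 and Slc17a6, of gut peptide uptake and of glutamate storage in synaptic vesicles, were at background on every array.

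The 4 genes named after a carrier were all detected and all highest on replicate 1. Slc9a3r1, which encodes the scaffold protein NHERF1, was at 11.05, 9.63 and 9.66. Its relative Slc9a3r2 was at 8.27, 8.14 and 7.66. Slc4a1ap (9.25, 8.98 and 8.88) and Slc7a6os (6.61, 5.96 and 6.14) had narrower ranges than Slc9a3r1. The other probe of Slc7a6os was lowest on replicate 1 (5.61, 5.87 and 5.75). Without these genes, 116 of 157 carriers (73.9%) were detected.

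**Figure D4:**
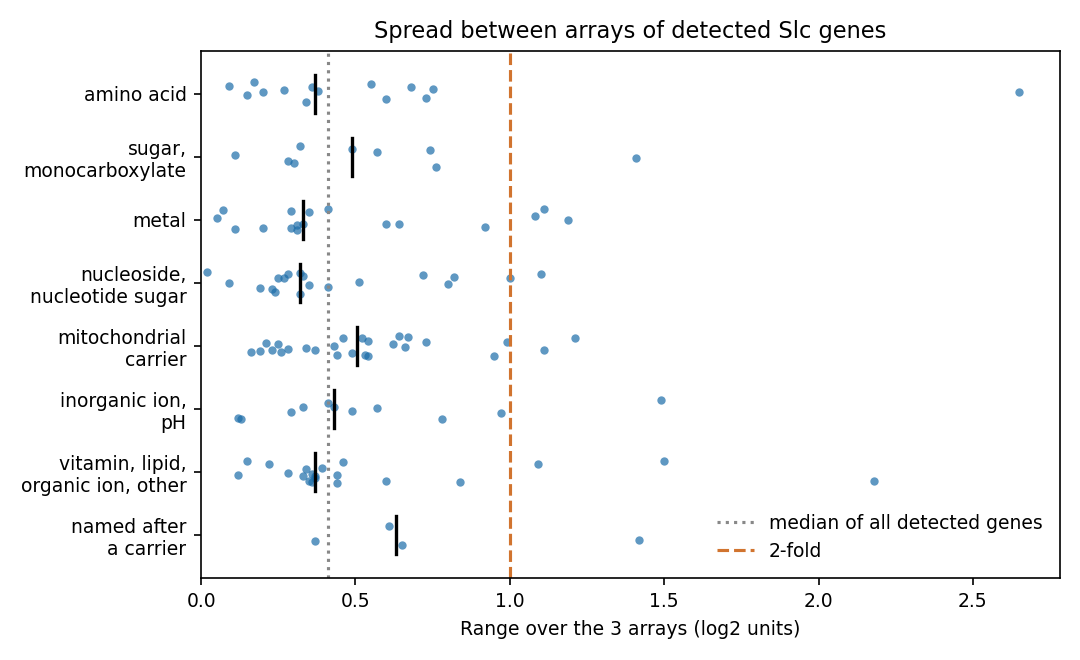
Range over the 3 arrays in log2 units (horizontal axis) of each detected solute carrier gene, by substrate class; black bars are class medians, the dotted line is the median of all detected genes (0.41) and the dashed line marks 2-fold. Class medians lie between 0.32 and 0.63, and the 14 genes right of the dashed line come from every class.

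Probes of 1 gene could differ. Of 36 carriers with at least 2 detected probes, 10 had the same array farthest from the middle value, and on the same side, with every detected probe. The same count was not made over all genes, so whether it is usual cannot be judged. The spread of the carriers as a whole was close to that of genes in general. Their median SD over arrays was 0.21 log2 units, as for all 7950 detected genes, and their median range 0.40 against 0.41. The median range ran between 0.32 (nucleoside and nucleotide sugar), 0.33 (metal), 0.37 (amino acid, and vitamin, lipid, organic ion and other), 0.43 (inorganic ion and pH), 0.49 (sugar and monocarboxylate), 0.51 (mitochondrial carrier) and 0.63 (named after a carrier). Just inside the 2-fold limit for wide ranges lay Slc35b2 (1.00) and Slc39a6 (1.08), and just outside it Slc25a37 (0.99) and Slc12a7 (0.97). Across the 120 detected carriers, which share the same arrays, replicate 1 correlated with replicate 2 at 0.930 and with replicate 3 at 0.933 (Pearson), and the other pair at 0.993. With the processed values of the authors 8 of the 120 carriers spanned over 2-fold (6.67%, beside 5.77% of all detected genes). All 8 were among the 14: Slc1a3, Slc19a2, Slc9a3r1, Slc2a6, Slc24a3, Slc39a13, Slc39a6 and Slc25a33.

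Classes were shifted by small amounts on each array. On replicate 1 the median deviation of a class from its genes' means, relative to all detected genes, was 0.32 log2 units for the 9 detected sugar and monocarboxylate carriers and 0.17 for the 14 amino acid carriers. With members not above background kept, these values were 0.19 and 0.02, and without replicate 3 they were 0.21 and 0.07. The shift was −0.13 for the nucleoside and nucleotide sugar carriers and −0.10 for the mitochondrial carriers, which turned to 0.06 when members not above background were kept. Replicate 1 was the highest array for 7 of the 9 sugar and 10 of the 14 amino acid carriers, and the lowest for 11 of the 19 nucleoside and nucleotide sugar carriers. Over all detected genes it was the highest in 43.3% and the lowest in 43.4%. The metal, inorganic ion, and vitamin and lipid classes were within 0.08 of zero on every array. These shifts are smaller than the ranges of many single members, and no test was made of them.

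**Figure D5:**
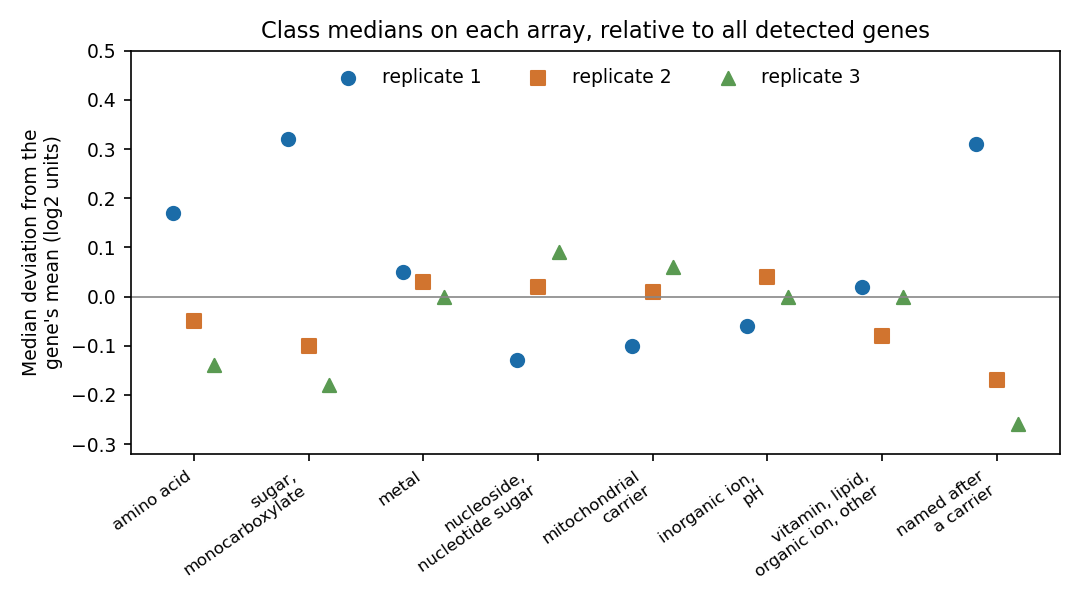
Median deviation of the detected members of each class from their own mean over the 3 arrays, relative to all detected genes (vertical axis, log2 units); each symbol is 1 array. Sugar and amino acid carriers lie above zero on replicate 1 (0.32 and 0.17), and nucleoside and mitochondrial carriers lie below it (−0.13 and −0.10).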

How the data were processed

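Per the file headers, the deposited unprocessed table gives each probe's intensity on a linear scale and its detection p-value. The authors' processed table holds log2 values for 17754 of 45281 probes. Its 3 columns share 1 distribution, as quantile normalisation gives, and correlate with log2 intensity at 0.999 or above. The submitters' processing notes name limma. No version and no rule for choosing the probes is stated there.

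Levels were computed from the unprocessed table with neqc in limma 3.58.1 (R 4.3.3), an offset of 16, with controls inferred from detection p-values. Gene names came from GEO's platform annotation: 15045 probes had 1 gene, 5 listed several and were left out, and 2704 probes of the processed table had none. Carriers were matched by symbol (221 probes, 161 genes), and all had a RefSeq entry by Entrez identifier. Promoter sequences are from RefSeq (GRCm38.p6).

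A gene was detected where its highest-mean probe had a detection p under 0.01 on all 3 arrays. The smallest nonzero detection p is 0.00107, and 0 lies below it. The levels of different genes come from different probes and were not set against each other. With 1 group there was no contrast and no test. The labels call the arrays biological replicates. Named genes were key members of each class, the 12 widest and 5 narrowest ranges, the 4 widest of each class and genes detected on some arrays only; others named here for their class were chosen with values known. Members and lists were chosen with earlier results of these data known. Alternatives were other detection limits and probe rules, other normalisations, the processed values, no filter, and each replicate left out. The steps were tested on simulated data. The number of arrays (3) limits the precision.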

Additional observations from a re-analysis of the deposited data

How the results depend on the processing

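The count of carriers detected on all 3 arrays (120) stayed within 1.5 times under every alternative run, between 108 (every probe of a gene detected) and 148 (at least 1 array). The share stayed below that of all named genes in each of them. The count was 120 to 128 with 1 replicate left out. The count spanning over 2-fold (14) was 8 with quantile normalisation alone (6.67%, against 5.9% of all detected genes) and 8 with the processed values of the authors (6.67%, against 5.77%), all 8 with replicate 1 farthest in both. Keeping the background in the intensity narrows log2 ranges by construction, and its part in these lower counts was not tested. Without normalisation between arrays the count was 26 (21.7%, against 18.1%), with 9 of the 14 among these 26. Replicate 1 was then farthest in 24 of the 26, and in Slc27a1, 1 of the 14, replicate 2 was farthest (range 1.18). The median of all detected genes was then at 0.26, −0.04 and −0.22 on replicates 1, 2 and 3, and the cause of the rise was not tested. With 1 replicate left out, the count ran between 0 (without replicate 1, against 0.493% of all genes) and 13 (without replicate 2, 10.8% against 8.24%). Small class shifts turned or moved by more than their spread over arrays: the mean of a gene's probes gave metal carriers −0.01 on replicate 1. With dim probes kept, metal carriers stood at −0.02 on replicate 2, mitochondrial carriers at 0.06 and inorganic ion carriers at −0.13 on replicate 1, and vitamin, lipid, organic ion and other carriers at 0.09 on replicate 1 and −0.07 on replicate 3. With 1 replicate left out, amino acid carriers stood between −0.18 and 0.02 on replicate 3, and metal carriers between 0.00 and 0.04 on replicate 1 and between −0.04 and 0.02 on replicate 2. Inorganic ion carriers stood between −0.11 and 0.03, −0.03 and 0.06, and −0.06 and 0.11 on replicates 1, 2 and 3, and the vitamin, lipid, organic ion and other class between −0.00 and 0.00 on replicate 2. No paired analysis was possible because all samples are in 1 group.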
